A study of Arabidopsis thaliana with 12 samples.

Results

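NLR genes encode the nucleotide-binding, leucine-rich repeat receptors with which plant cells detect pathogen effectors, and 5 of them were followed in Arabidopsis shoots that were warmed from 16 to 25 °C. They were taken by gene identifier from the authors' deposited table of alternative splicing: *RPP4* (AT4G16860), *RPS4* (AT5G45250), *RPS6* (AT5G46470), AT5G40910 and AT1G58602. All rows of these genes were used, which gave 9 of the 638 events and 5 of the 511 genes in the table. The events are 8 retained-intron events, 5 of them in *RPP4*, and 1 alternative 3′ site in AT1G58602. Counts of retained introns in the table are counts of such events, and several events may concern the same intron.

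Col-0 wild-type plants were grown for 5 weeks at 16 °C under short days (8 h of light, 16 h of dark) and then stayed at 16 °C or were moved to 25 °C. RNA from SAM-enriched tissue, which the labels call SAM and early stage leaves, was sequenced from 12 samples of about 10 plants each: 3 at 16 °C on day 1, and 3 each at 25 °C on days 1, 3 and 5. The table gives 1 value per event and group of the percentage spliced in (PSI), written here as a fraction. PSI of a retained intron is read here as the fraction of transcripts of the event that keep the intron, the usual convention. The methods say only that 1 isoform served as reference, so this orientation was not checked, and every statement on retention rests on it. Events enter the table only when the authors called them different from 16 °C on at least 1 warm day, so some difference was a condition of being listed. With 1 value per group there is no spread over samples, no difference can be tested, and no p-value is given, and the read depth of each event is not in the table. According to the methods, tested events had to reach a minimum of isoform-specific reads in replicates and to differ less within than between conditions. PSI is rounded to 2 decimals, so a difference carries a rounding error of up to 0.01. The 16 °C group serves all 3 comparisons, so at days 3 and 5 warmth and plant age cannot be told apart. The table holds no expression level, so neither the amount of any receptor transcript nor the labelled tissue could be checked.

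An NLR protein carries a central NB-ARC module that acts as a nucleotide-dependent switch and a leucine-rich repeat part that takes part in recognition. In the TIR class, to which the annotation assigns all members but AT1G58602, a Toll/interleukin-1 receptor domain precedes them and signals through EDS1. Immunity through several Arabidopsis NLRs is known to weaken at elevated ambient temperature. NLR transcripts are often alternatively spliced, and retention of an intron inside the coding part can shorten the encoded receptor or expose the transcript to nonsense-mediated mRNA decay.

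*RPP4* mediates resistance to the downy mildew pathogen of Arabidopsis and lies on chromosome 4 (9488466 to 9495837, reverse strand) in a cluster of related receptor genes that includes *SNC1*. Its reference model has 6 exons and 5 introns, all inside the coding part. Intron 1 is 3158 bases long and the others are 100 to 183 bases. The table does not say which intron an event concerns, so the 4 short introns are shown as the sequences an event may concern if it lies at an annotated intron other than the long one. Each is written 5′ to 3′ on the strand of the gene (RefSeq, TAIR10.1), and capitals mark the first stop codon met in frame when translation reads from the exon into the retained intron.
*RPP4* intron 2 (chr4:9490812-9490994): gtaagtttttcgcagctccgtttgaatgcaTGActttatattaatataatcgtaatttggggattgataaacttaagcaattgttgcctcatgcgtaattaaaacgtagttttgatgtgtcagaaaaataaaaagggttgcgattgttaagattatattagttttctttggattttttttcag
*RPP4* intron 3 (chr4:9490379-9490478): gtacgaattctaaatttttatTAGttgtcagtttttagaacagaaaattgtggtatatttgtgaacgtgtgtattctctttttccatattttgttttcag
*RPP4* intron 4 (chr4:9489852-9489967): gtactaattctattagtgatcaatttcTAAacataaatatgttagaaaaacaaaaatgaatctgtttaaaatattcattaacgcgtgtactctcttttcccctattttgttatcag
*RPP4* intron 5 (chr4:9489256-9489371): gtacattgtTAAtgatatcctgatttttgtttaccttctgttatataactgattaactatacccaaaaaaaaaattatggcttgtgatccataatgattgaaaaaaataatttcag

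In each of these 4 introns the stop lies near the 5′ end, between positions 10 and 31 of the intron, and intron 1 has a TGA at position 29. Introns 3, 4 and 5 are not a multiple of 3 in length, whereas intron 2, at 183 bases, is.

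Retention was higher at 25 °C than at 16 °C in 4 *RPP4* events and lower in another (the plot of PSI by group). For the event numbered 11001, PSI was 0.26 at 16 °C and 0.46, 0.45 and 0.45 on days 1, 3 and 5. The 3 warm values lay within 0.01 of each other. The event 10998 had a PSI of 0.34 at 16 °C and 0.51, 0.52 and 0.48 on the warm days. Its highest warm value came on day 3. For the event 10997, PSI was 0.30 at 16 °C and then 0.47, 0.47 and 0.44. The difference from 16 °C was equal on days 1 and 3, at 0.17, and 0.14 on day 5. The event 11000, the lowest of the 4, had a PSI of 0.18 at 16 °C and 0.34, 0.31 and 0.34 afterwards. It differed from 16 °C by 0.16, 0.13 and 0.16.

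The 4 differences were alike in size. On day 1 their PSI was 0.16 to 0.20 above that at 16 °C, on day 3 0.13 to 0.19 and on day 5 0.14 to 0.19. At 16 °C they had spanned 0.18 to 0.34, and 11000 was the lowest and 10998 the highest in every group. Each of these events was higher in every warm group than at 16 °C. The events belong to 1 gene and may share reads, so they are not independent of each other.

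The event 10995 differed from the other 4 in level and direction. On the reading above, its intron was kept in nearly all transcripts at 16 °C, with a PSI of 0.98. PSI was 0.88, 0.91 and 0.89 on days 1, 3 and 5. The change was -0.10, -0.07 and -0.09. Expressed as the spliced form, the fraction without the intron was 0.02 at 16 °C and 0.12, 0.09 and 0.11 in the warm groups. Retention was thus not higher in every listed event of *RPP4*.

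Parts of *RPP4* have close copies elsewhere. Of its 7372 bases, 30.4% lie in stretches of at least 100 bases that match another place on the chromosomes at 95% identity or more, in AT4G16920, AT4G16940, *SNC1* and AT4G16857. Introns 3, 4 and 5 hold no such base, intron 2 holds 48 and intron 1 holds 104. The gene has 2240 such bases, so most of them lie in its exons. Reads from these copies can be placed on the wrong gene, which makes PSI of events in or beside those stretches less certain. An intron without such bases can still have them in the exons next to it. None of the 4 other genes has an event in the table. Of AT1G58602, 258 bases outside its introns have such a copy, and of *RPS4*, *RPS6* and AT5G40910 none.

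**Figure D1:**
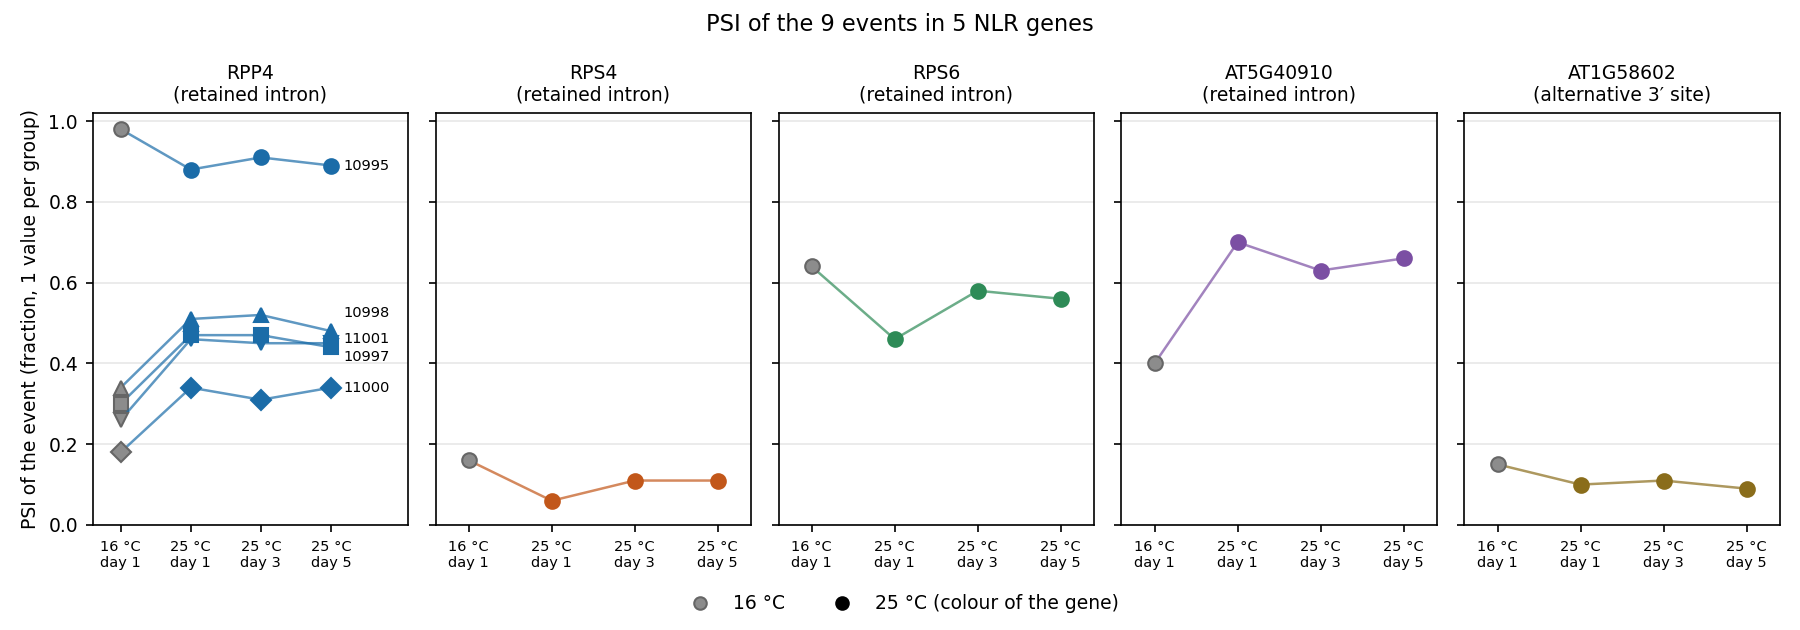
PSI (fraction, 1 value per group) of each of the 9 events in the 4 groups, with grey points at 16 °C and coloured points at 25 °C; lines join the groups of an event, and numbers name the *RPP4* events. The 4 *RPP4* events that start between 0.18 and 0.34 and that of AT5G40910 are higher in every warm group, and the other 4 events are lower.

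AT5G40910 had the largest difference among the members. The gene encodes a TIR-NBS-LRR protein of 1104 residues on chromosome 5 (16394462 to 16400489, forward strand). PSI was 0.40 at 16 °C and 0.70, 0.63 and 0.66 on days 1, 3 and 5, and the form with the intron was the minor form at 16 °C and the major form in every warm group. The lowest of the 3 warm values, on day 3, was 0.23 above that at 16 °C. The mean change over the warm days, 0.26, was the 34th largest of 638 in size and the 16th of 246 retained introns.

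The reference itself lists transcripts of AT5G40910 that differ by a kept intron. Of 9 coding transcripts, 2 splice out a stretch of 69 bases in the last coding exon and 7 keep it. A stretch of 261 bases that runs into the start of the coding part, also a multiple of 3, is spliced out in 2 and kept in 5. Further in, stretches of 124 and 96 bases that end at the same acceptor are each spliced out in 2 transcripts and kept in 5. The stretch of 69 bases is a multiple of 3, unlike introns 3 and 4, which interrupt the coding part of all 9 transcripts. The event of the table is not placed, so the stretch of 69 bases and introns 3 and 4 are shown as some of its candidates, with the same capitals in introns 3 and 4 and none in the optional intron, which the longer protein form reads through.
AT5G40910 intron 3 (chr5:16397170-16397255): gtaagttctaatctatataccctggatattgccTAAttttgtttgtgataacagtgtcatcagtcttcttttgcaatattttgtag
AT5G40910 intron 4 (chr5:16397535-16397632): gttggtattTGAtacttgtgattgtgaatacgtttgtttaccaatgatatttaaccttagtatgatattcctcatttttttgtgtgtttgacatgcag
AT5G40910 optional intron (chr5:16398345-16398413): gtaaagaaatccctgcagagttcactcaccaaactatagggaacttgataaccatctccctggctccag

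*RPS4* and *RPS6* showed the opposite direction, and both differed most from 16 °C on day 1. The change was largest on day 1 in 5 of the 9 member events, 2 of them in *RPP4*, and in 34.5% of all events. *RPS4* (chromosome 5, 18321764 to 18326175, reverse strand) mediates recognition of the *Pseudomonas* effector AvrRps4 together with the neighbouring *RRS1*, and the reference notes that it produces alternative transcripts with shortened reading frames. PSI of its retained intron was 0.16 at 16 °C, 0.06 on day 1 and 0.11 on both later days. The change was -0.10 on day 1, and 50.0% of it was left on days 3 and 5. The gene has 4 introns of 86 to 147 bases, all in the coding part, and the event is not placed among them. Read with the same capitals, the first 3 hold a stop in frame and intron 4 holds none.
*RPS4* intron 1 (chr5:18325403-18325549): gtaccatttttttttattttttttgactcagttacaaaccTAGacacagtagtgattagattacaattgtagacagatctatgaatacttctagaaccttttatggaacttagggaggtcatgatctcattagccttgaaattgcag
*RPS4* intron 2 (chr5:18324134-18324219): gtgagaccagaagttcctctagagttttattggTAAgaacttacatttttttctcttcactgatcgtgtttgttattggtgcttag
*RPS4* intron 3 (chr5:18323713-18323818): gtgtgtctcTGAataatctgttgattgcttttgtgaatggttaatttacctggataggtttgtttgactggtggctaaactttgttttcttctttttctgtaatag
*RPS4* intron 4 (chr5:18322712-18322827): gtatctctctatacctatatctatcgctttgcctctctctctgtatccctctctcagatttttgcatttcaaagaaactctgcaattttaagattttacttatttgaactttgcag

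*RPS6* (chromosome 5, 18842553 to 18849741, forward strand) recognises the *Pseudomonas* effector HopA1, and its transcript is a known target of nonsense-mediated decay. PSI was 0.64 at 16 °C, 0.46 on day 1, 0.58 on day 3 and 0.56 on day 5. The change was -0.18 on day 1, -0.06 on day 3 and -0.08 on day 5. The share of the day 1 difference still present was 33.3% on day 3 and 44.4% on day 5, the lowest among the members. Its reference model has 10 introns, of which 5 interrupt the coding part, and each of these 5 holds a stop in frame.

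AT1G58602 encodes a receptor annotated with leucine-rich repeats and an NB-ARC domain, and it spans 19695 bases of chromosome 1 (21746354 to 21766048, forward strand). PSI of its alternative 3′ site was 0.15 at 16 °C and 0.10, 0.11 and 0.09 on days 1, 3 and 5. All 3 warm values lay below that at 16 °C. The change, -0.05 in the mean, was the smallest of the 9 and ranked 186th of 213 alternative 3′ sites. Which of both isoforms PSI counts is unknown, so the direction says only that this isoform had a lower share at 25 °C. In the reference, both transcripts of AT1G58602 share the donor of their last intron and use acceptors 281 bases apart, after the end of the coding part. Whether the event concerns them is not given, and the last 24 bases of the intron before each acceptor are shown with the terminal AG in capitals.
AT1G58602 nearer acceptor (chr1:21764746-21764769): ttttttcattattctgttttgtAG
AT1G58602 farther acceptor (chr1:21765027-21765050): attcatagcttatggttgaggcAG

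The models differ in how much of the gene is intron (the map of the 5 genes). AT1G58602 has introns of up to 7384 bases before its coding part, and *RPS6* has 5 introns after it. In all, 18 of the 19 introns inside the coding parts of the members hold a stop in frame when retained (94.7%), against 89.7% of such introns over all protein-coding genes and 90.3% over the genes with a retained intron in the table. The share in the members is thus close to that of any gene. Among the 18 is intron 2 of AT5G40910, which begins with tt and not gt and is spliced out in 2 of 9 transcripts. Its stop, at position 26, lies before the overlapping stretch of 96 bases that other transcripts splice out.

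**Figure D2:**
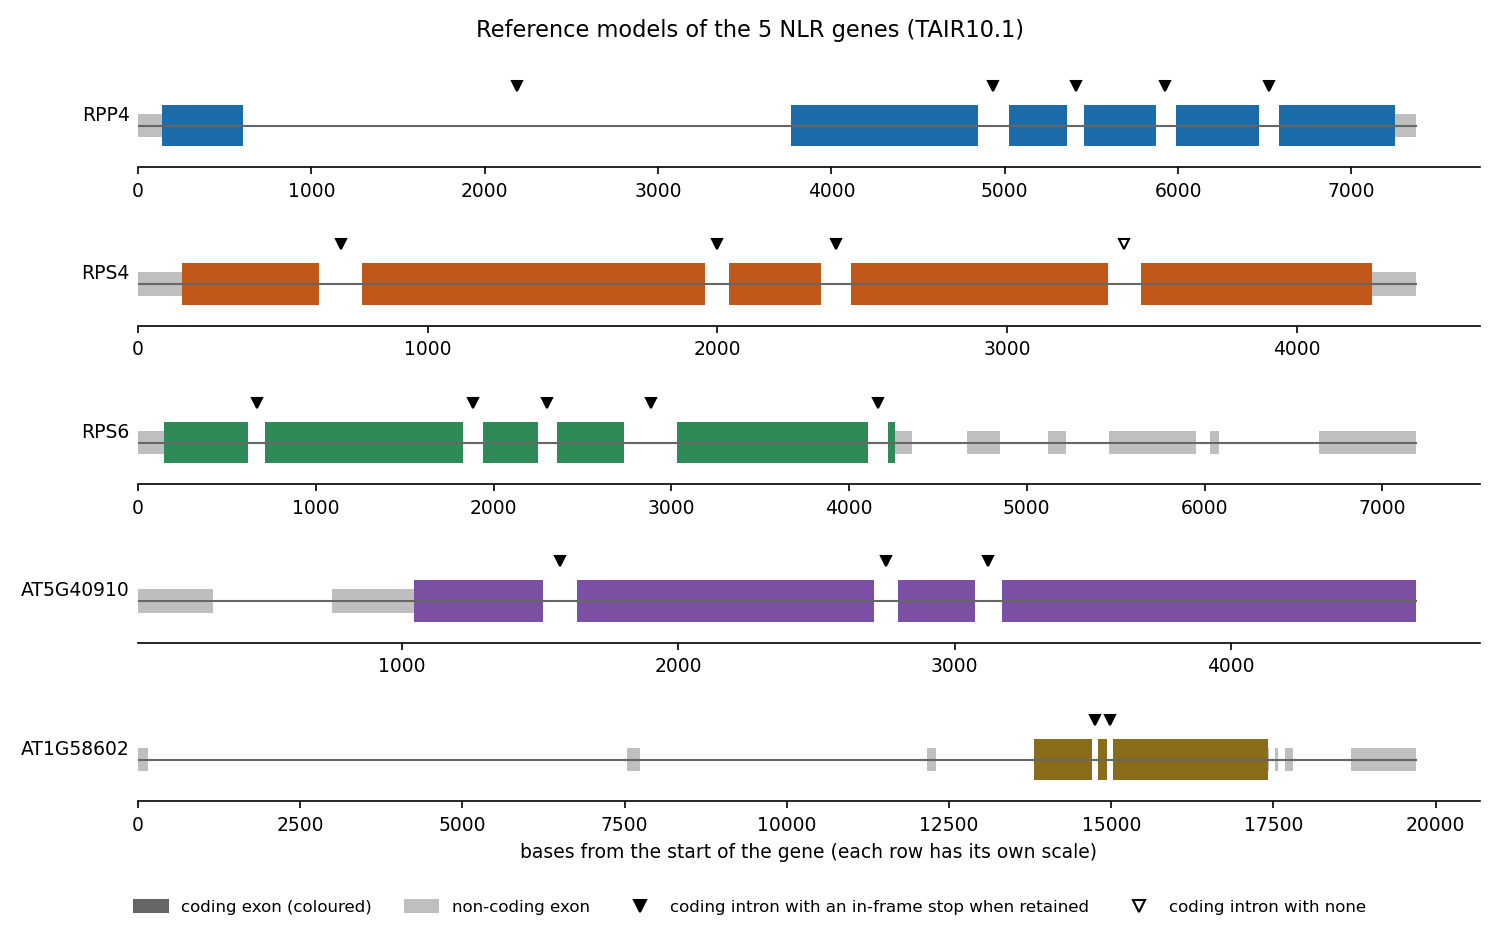
Exons and introns of the reference transcript of each gene, drawn to scale in bases from the start of the gene, with a scale for each row; tall coloured boxes are coding exons and low grey boxes non-coding ones. Filled triangles mark 18 introns inside the coding part with a stop in frame when retained, and the open triangle marks intron 4 of *RPS4*, which has none.

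The sizes of the changes were spread over the range of the table. On day 1, 8 of the 9 events differed from 16 °C by at least 0.1, against 60.8% of all events, and 5 of the 9 belong to *RPP4*. The *RPP4* event 10995 and that of *RPS4*, both at -0.10, lay on this minimum, within the rounding. On day 3, 5 events reached the minimum, against 59.9% of all, and on day 5 also 5, against 56.4%. The median absolute change of the members was 0.17 on day 1, 0.13 on day 3 and 0.14 on day 5, and that of all events was 0.11 on each day. Without *RPP4* the median of the other 4 events was 0.14, 0.055 and 0.07, so on days 3 and 5 it lay below that of all events. Of these 4 events, 3 differed by at least 0.1 on day 1, and 1, that of AT5G40910, on each of days 3 and 5. In the mean over the warm days, 6 of 9 members reached 0.1, against 57.5% of all. Among the members, AT5G40910 and *RPP4* event 11001 ranked 34th and 113th of 638 in size, and *RPS4* and AT1G58602 ranked 496th and 560th.

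The members had no common direction. PSI was higher at 25 °C in the mean of the warm days for 5 events, 4 of them in *RPP4*, against 50.6% of all events. It was lower for the other 4, against 49.4%. By gene, retention was higher in AT5G40910, lower in *RPS4* and *RPS6*, and both in *RPP4*. The order of retention differed between the groups. *RPS6* was second only to the *RPP4* event 10995 at 16 °C, with 0.64. On day 1 it was at 0.46, level with the *RPP4* event 11001 and below AT5G40910 at 0.70. On days 3 and 5 *RPS6*, at 0.58 and 0.56, was again above the 4 *RPP4* events with higher PSI. It was still below AT5G40910, at 0.63 and 0.66. No spread over samples is available to say which neighbours in this order differ.

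**Figure D3:**
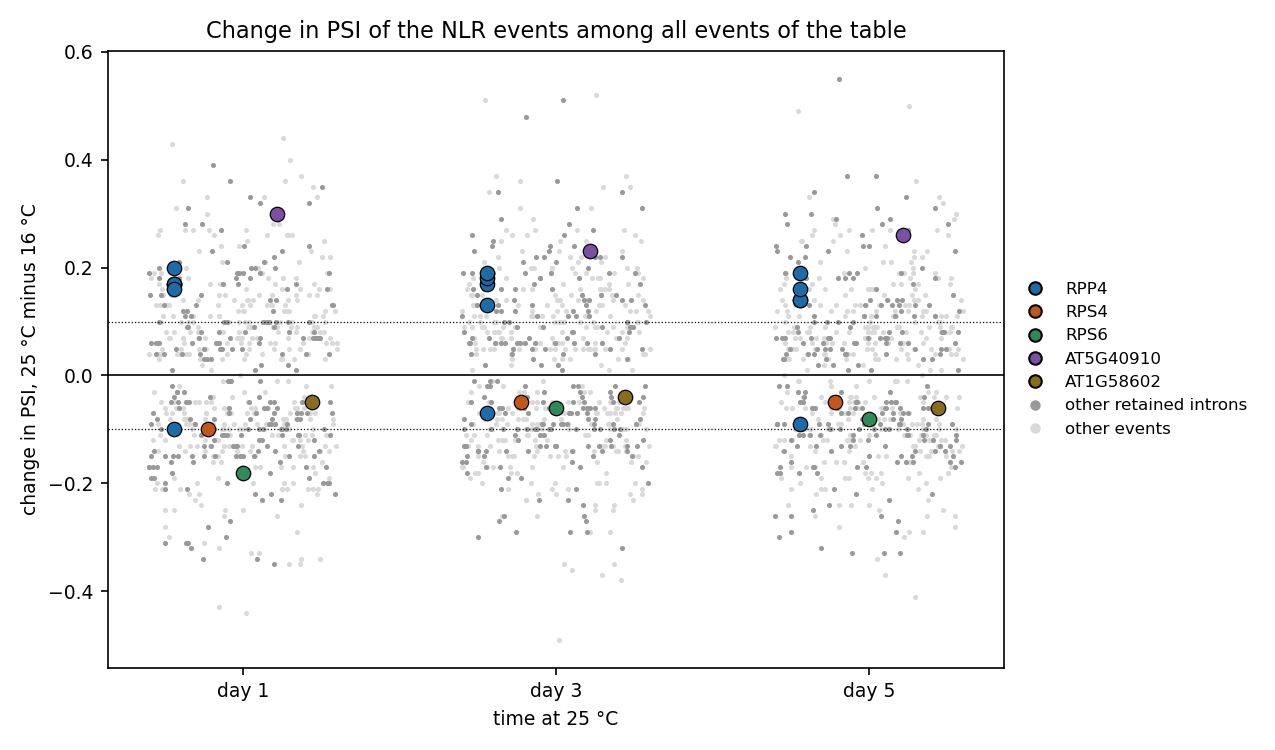
Change in PSI (25 °C minus 16 °C) of every event of the table on days 1, 3 and 5, with the NLR events as large coloured points, other retained introns in dark grey and other events in light grey; points are spread sideways at random and dotted lines mark a change of 0.1 in either direction, and equal values of *RPP4* overlap. The NLR events lie on both sides of 0 on each day, from -0.18 (*RPS6*) to 0.30 (AT5G40910) on day 1.

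By day 5 most member events differed less from 16 °C than on day 1. The change was smaller on day 5 than on day 1 in 7 of the 9 events, larger in 1 (AT1G58602, -0.06 against -0.05) and equal in 1 (*RPP4* event 11000). Of the 7, 4 belong to *RPP4* and are not independent of each other. Without that gene the change was smaller in 3 of 4 events. Over all events it was smaller on day 5 in 49.7%. The values of days 1 and 5 were 0.10 apart in *RPS6*, 0.05 in *RPS4* and 0.01 to 0.04 in the other 5 of the 7, which is near the rounding for some of them. The sign of the change was the same on all 3 days in every member, as in 97.6% of all events.

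*RPP4* had more events than most genes of the table. Of the 511 genes, 425 had 1 event. Only *RPP4* and the receptor-like kinase gene AT4G03230 had at least 4 retained-intron events, 5 each. In AT4G03230 PSI was higher for 3 and lower for 2 of them. An intron retained in a transcript that also keeps its neighbours can enter several events. Whether the *RPP4* events concern separate introns or lie in the same transcripts is not given.

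By product name, no other NLR gene was in the table. The reference has 154 genes whose product names an NBS-LRR or NB-ARC protein, and the 5 members (3.25%) were those listed. By comparison, 483 of 27444 protein-coding genes (1.76%) had an event. Only called events are listed, so these shares do not show how often NLR transcripts respond.

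Of 44 genes that act with NLRs, 3 (6.82%) were in the table, all among those linked to RNA processing. The share of all protein-coding genes was 1.76%. The lists were chosen with earlier results of these data known, so the 2 shares do not measure enrichment. None of 12 genes for signalling downstream of NLRs, such as *EDS1*, *PAD4* and the helper receptor genes of the *ADR1* and *NRG1* families, was listed. The same held for 8 genes of chaperones and receptor turnover, such as *SGT1B* and *RAR1*, and for 6 neighbours or partners of the members, such as *SNC1*, *RPP5* and *RRS1*. At the share of all genes, lists as short as these would hold few genes or none, so nothing is read from their absence. Of 18 genes linked to RNA processing of NLR transcripts, 3 had an event each, and their mean PSI was higher at 25 °C, against 50.6% of all events. The 3 events are of different types, so their PSI counts unlike isoforms and nothing is read from the shared direction. A retained intron of *EDM2*, a nuclear regulator that controls transcripts of an NLR gene, had a PSI of 0.24 at 16 °C and 0.42, 0.28 and 0.35 in the warm groups. Its difference from 16 °C was largest on day 1, at 0.18. An exon of *MOS1*, which regulates expression of *SNC1*, had a PSI of 0.10 at 16 °C and 0.17, 0.23 and 0.22 on the warm days. An alternative 3′ site of *SR45*, a splicing factor of the SR type, had 0.09 at 16 °C and 0.15, 0.13 and 0.14 afterwards.

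The events most like those of the members were sought among events of other genes, and all came from other families. By product name the table holds no NLR gene besides the 5 members, so such neighbours were nearly certain. They do not show whether NLR events resemble each other. Likeness was measured as the sum over the 3 days of the absolute differences in the change of PSI, within the same type of event, and rests on 3 changes that share the 16 °C value. The *RPP4* event 11001 was nearest to a retained intron of AT1G17680, a tetratricopeptide repeat gene (0.17 at 16 °C, then 0.37, 0.37 and 0.36, a sum of 0.01), and of AT4G38350, a gene of the Patched family (sum 0.02). The *RPS4* event was nearest to a retained intron of *BECLIN1*, an autophagy gene, which had a PSI of 0.16 at 16 °C and 0.07, 0.12 and 0.11 on the warm days (sum 0.02), and of AT3G48050 (sum 0.03). For *RPS6* the 2 nearest events were both of AT4G24415, with the same values, 0.40 at 16 °C and 0.23, 0.35 and 0.31 in the warm groups (sum 0.03). For AT1G58602 they were alternative 3′ sites of *RSZ32*, an SR protein gene (sum 0.02), and AT3G61010 (sum 0.03). AT5G40910 had no neighbour as near: a retained intron of AT1G62130, an AAA-type ATPase gene, was at a sum of 0.09 and that of AT4G03230 at 0.11. Its mean change was the 16th of 246 retained introns in size, so few events with changes as large were there to be near. The larger sums are therefore not read as an unusual course.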

How the data were processed

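RNA-seq of 12 samples, grouped by title, was processed by the authors. Reads were mapped to TAIR10 with TopHat, transcripts assembled with Cufflinks, and PSI estimated with MISO in each sample and in merged replicates, the latter for the test. The deposited values are PSI fractions rounded to 2 decimals, 1 per group; which of these estimates the table holds is not stated in it, nor is the handling of reads with several places. A further column names the days called by the authors for each event; it was not used.

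Members, lists and comparisons were chosen with earlier results of these data known. PSI at 16 °C was subtracted from PSI at 25 °C (pandas 2.3.3), and changes of at least 0.1 were counted. Named were all events of the members, of 44 genes listed by identifier and of genes with NLR keywords (members alone matched), and the 2 events most like the largest change of each gene. RefSeq models (TAIR10.1) had the coding start and end of 98.6% of 483 table genes, all members included. Similar sequence was found with blastn 2.17.0+. The code was run on simulated data without noise or rounding, with 638 events, where the sign was recovered for 200 of 200 events given a change. That run checks the arithmetic only and says nothing on the certainty of real PSI values. Alternatives were single days, the median of days, the odds scale, other minimum changes, a filter on extreme PSI, 1 event per gene and omission of *RPP4*.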

Additional observations from a re-analysis of the deposited data

How the results depend on the processing

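The direction of all 9 mean changes was the same on each day. The median of the warm days and the log2 odds scale then had to give the same sign, so they are no further check. On the odds scale only the sign was compared. The median of the warm days lay within 1 SD of the 3 warm values for all 9 events, which holds for any 3 values. The values of single days, from which that SD comes, lay further from the mean for 4 events on day 1, 2 on day 3 and 2 on day 5. The count of events with higher PSI, 5 of 9, stayed at 5 on each day. The filter on extreme PSI could not move it, since it took out only the *RPP4* event 10995, which was lower at 25 °C. The count was 2 of 5 genes with 1 value per gene. Without *RPP4*, an alternative chosen after the values were seen, it was 1 of 4 events, so the majority rests on that gene. The count of events with a mean change of at least 0.1, 6 of 9, was 9 at a minimum of 0.05, 1 at a minimum of 0.2 and 2 of 4 without *RPP4*. On days 1, 3 and 5 it was 8, 5 and 5. No paired analysis was possible because the table holds 1 value per group and no value per sample, and for the same reason leaving out a replicate was not possible. The table holds no read depth, although the authors required a minimum of reads, so no interval of a PSI is given.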
